A study of Mus musculus with 2 samples.

Results

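The respiratory chain subunits are the 82 protein coding genes whose symbols name a subunit of complexes I to IV or a protein encoded in mitochondrial DNA. They were chosen by symbol alone: those starting with mt-, Uqcr, Ndufa, Ndufb, Ndufc, Ndufs or Ndufv (assembly factors left out), Sdha to Sdhd, Cyc1, and Cox4 to Cox8. They are 82 of 21474 named protein coding genes and of 43346 Ensembl genes in the tables. Of these, 13 lie in mitochondrial DNA and 69 in the nucleus. Their transcripts were measured by sequencing total RNA of the embryonic facial prominence, the tissue of the future face, from B6NCrl mice at embryonic day 10.5. The series has 1 group of 2 pools, replicate 1 from 69 embryos and replicate 2 from 51, with male and female embryos in each pool and 10 ng of RNA per library. The labels name no genetic change, no treatment and no control, so every value below describes 2 libraries and no comparison of conditions was possible.

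The respiratory chain passes electrons from NADH and succinate to oxygen in the mitochondrial inner membrane. Complex I oxidizes NADH, complex II succinate, complex III passes electrons to cytochrome c and complex IV reduces oxygen, and the proton gradient built by complexes I, III and IV drives the ATP synthase, complex V. Mitochondrial DNA encodes core membrane subunits of complexes I, III, IV and V, whereas complex II is wholly nuclear. Pieces of mitochondrial DNA have also been copied into nuclear chromosomes, and such copies can be nearly identical to the genes they came from.

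Expected counts assigned to genes came to 40059176 (replicate 1) and 39531700 (replicate 2). Spike-in controls held 3.46% and 3.94% of all counts. All 10 facial mesenchyme markers, among them Msx1 and Prrx1, were detected, with summed levels of 803.7 and 763.6 TPM (a level per transcript length that the authors scaled to a fixed total per library). All 8 erythroid markers were detected too, with summed levels of 10786 and 9757 TPM. The 8 neuron markers were also all detected, with summed levels of 552.5 and 557.1 TPM. In such tissue RNA, fewer cells of a type and less RNA per cell cannot be told apart.

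The values of several mitochondrial genes turn on a stretch of chromosome 1 whose letters match theirs, and the sequences are given first for that reason. Pseudogene transcripts of the GENCODE M21 annotation (GRCm38, also called mm10) matched the coding sequence of 11 mitochondrial members at 90% identity or more over at least 100 bases, with 15 pseudogenes in all. Of these, 7 lay side by side on the minus strand of chromosome 1, from 24611535 to 24616197, a stretch of 4663 bases that overlapped no protein coding gene. The first 60 coding bases of mt-Co3, the third core subunit of complex IV, were the same letters in the pseudogene Gm28437, as were all 783 bases aligned. For mt-Nd3, a core membrane subunit of complex I, the single difference over 345 bases was T3C, and for mt-Co1, which holds the oxygen-reducing centre of complex IV, the single difference over 480 bases was A1066T. Positions are counted from 1 at the first coding base of the member, the member's base is given first, and capitals mark the base that differs. The mt-Nd3 run shows bases 1 to 60 and the mt-Co1 run bases 1063 to 1122, each above its copy.
mt-Co3 (chrM:8607-8666, plus strand) and Gm28437 (chr1:24613912-24613971, minus strand): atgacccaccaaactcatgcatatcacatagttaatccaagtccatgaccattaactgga
mt-Nd3 (chrM:9459-9518, plus strand): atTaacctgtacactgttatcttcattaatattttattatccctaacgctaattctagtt
Gm28438 (chr1:24613060-24613119, minus strand): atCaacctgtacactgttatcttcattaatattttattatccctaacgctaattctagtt
mt-Co1 (chrM:6390-6449, plus strand): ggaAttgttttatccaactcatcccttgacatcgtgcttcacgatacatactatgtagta
Gm29216 (chr1:24616129-24616188, minus strand): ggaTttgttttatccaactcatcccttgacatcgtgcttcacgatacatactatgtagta

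The copies mattered for the counts. The 7 pseudogenes of the chromosome 1 stretch held 148988 and 145180 expected counts in the libraries, which was 31.3% and 32.9% of the counts of the mitochondrial genes and all their copies together. The other 8 matching pseudogenes did not exceed 1.26 TPM in either library. Whether the reads assigned to chromosome 1 came from mitochondrial or nuclear DNA was not tested. Levels of the mitochondrial genes are therefore given as deposited and also with the counts of their copies added, divided by the mitochondrial gene's own effective length; this second level was chosen after seeing the data.

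Nearly all subunits were expressed. With detection set at 1 TPM or more in each library, 78 of 82 were detected, where 58.2% of all named protein coding genes were. All 13 mitochondrial genes and 65 of 69 nuclear genes passed. A level of at least 100 TPM in both libraries was reached by 69 of the 82, against 7.63% of all protein coding genes. The median over the 82 members was 268.4 ± 7.29 TPM (SD, n = 2), and the median over all detected protein coding genes was 20.1 TPM. The 4 members not detected were Cox6a2, Cox7b2, Cox8b and Cox8c, all of them variants of complex IV subunits.

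By library, the 13 mitochondrial subunits summed to 18024 and 16386 TPM and the 69 nuclear subunits to 20369 and 20125 TPM. In counts, the mitochondrial subunits held 0.818% (95% exact Clopper-Pearson interval 0.815% to 0.821%) of gene counts in replicate 1 and 0.748% (0.746% to 0.751%) in replicate 2. The nuclear subunits held 0.852% (0.85% to 0.855%) and 0.85% (0.847% to 0.852%). These intervals cover counting error only and not the spread between pools. With the copies added, the mitochondrial share was 1.19% and 1.12%.

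**Figure D1:**
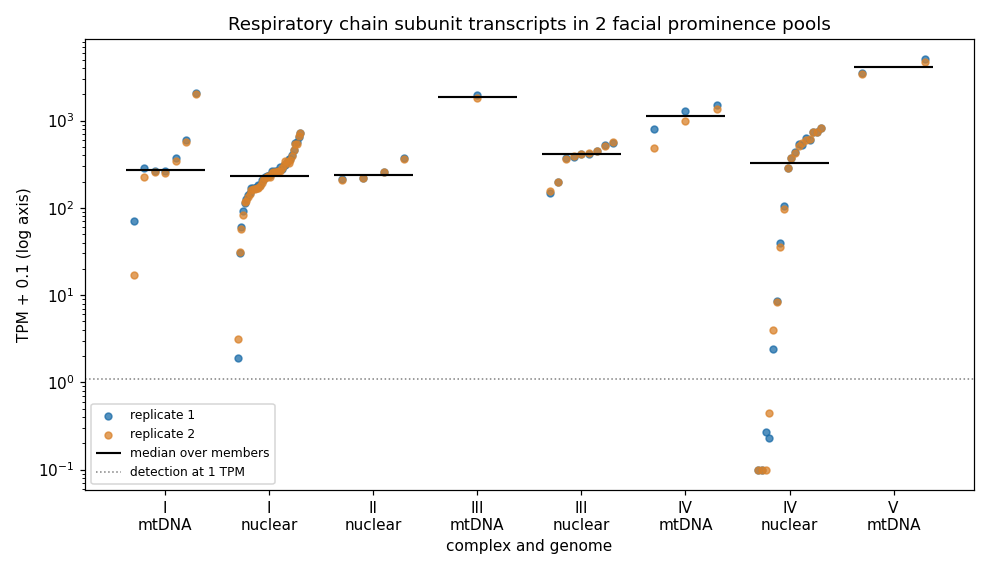
TPM of every subunit in each library, on a log axis after adding 0.1, by complex and by the genome that encodes it. Points are single genes in 1 library, black bars are the median over members (mean of 2 libraries), and the dotted line is the detection level of 1 TPM. The mitochondrial genes of complexes III, IV and V stand above most nuclear subunits, while those of complex I overlap the nuclear ones, and the only points under the dotted line are variants of complex IV.

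In complex I, the mitochondrial and nuclear medians lay close together as deposited. The 7 mitochondrial genes had a median of 286.5 TPM in replicate 1 and 254.2 in replicate 2, and the 38 nuclear genes 235.5 and 230.5. On the log2 scale the mitochondrial median exceeded the nuclear one by 0.21 ± 0.10 (SD, n = 2), or 1.22-fold and 1.1-fold. With means in place of medians the difference was 1.06. With the copies added the difference was 0.62 ± 0.04, or 1.56-fold and 1.51-fold.

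Among the mitochondrial genes of complex I, all of them core membrane subunits, levels spread widely. mt-Nd1 (ENSMUSG00000064341, chrM:2751-3707) stood at 2059 TPM in replicate 1 and 2015 in replicate 2, above all 38 nuclear subunits of the complex. mt-Nd4 followed at 604.2 and 564.9 TPM and mt-Nd2 at 368.3 and 348.0 TPM. The next genes lay close together: mt-Nd6, the one member encoded on the opposite strand of mitochondrial DNA, at 266.7 and 249.9 TPM, and mt-Nd5 at 261.7 and 254.2 TPM. Their ranges overlapped, so the order of mt-Nd5 and mt-Nd6 is not given. mt-Nd5 and mt-Nd6 also share 14 bases on opposite strands (chrM:13552-13565), and the sources used here do not say whether the counting used strand.

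Of the mitochondrial genes of complex I, mt-Nd3 and mt-Nd4l have a copy that received many counts. mt-Nd3 had 286.5 and 225.9 TPM while Gm28438 had 576.2 and 624.6 TPM, and their joint level was 855.8 and 843.0 TPM. The range of mt-Nd3 as deposited overlapped those of mt-Nd5 and mt-Nd6. The lowest mitochondrial gene in both libraries, mt-Nd4l (ENSMUSG00000065947, chrM:9877-10173), had 69.7 and 17.0 TPM while its copy Gm10222, identical over 294 bases, had 267.5 and 302.3 TPM. The joint level of mt-Nd4l was 333.1 and 314.7 TPM. As deposited, mt-Nd4l exceeded 1 of 38 nuclear complex I subunits in both libraries, and with its copy 28 of 38. The copy of mt-Nd4, Gm28439, is identical over 876 bases and had 0 and 0.18 TPM, so an identical copy did not always take counts.

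The nuclear genes grouped under complex I by symbol ran from 2.4 (Ndufa4l2) to 720.2 TPM (Ndufa4) in mean level. Of these 38 genes, 34 were at 100 TPM or more in both libraries. Without Ndufa4 and Ndufa4l2, the range was 30.9 (Ndufb4) to 653.6 TPM (Ndufab1). All complex I values given here keep both genes in the group. Ndufa4, found in early preparations of complex I and since assigned to complex IV, led at 722.4 and 718.1 TPM. It was followed by Ndufab1, the acyl carrier protein of mitochondrial fatty acid synthesis, at 646.5 and 660.7 TPM, and by Ndufc1, a small membrane subunit, at 560.2 and 540.4 TPM. The lowest were Ndufa11 at 59.5 and 57.0 TPM, Ndufb4 at 30.5 and 31.3 TPM, and Ndufa4l2, a relative of Ndufa4 known as induced by low oxygen, at 1.80 and 3.0 TPM.

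The low level of Ndufb4, an accessory membrane subunit, had a counted copy beside it. The pseudogene Ndufb4c (chr15:73809507-73809896, minus strand, within the span of Mroh5) is identical to the Ndufb4 coding sequence over 387 bases and had 231.3 and 229.2 TPM. The first 60 bases of that shared run, at chr15:73809837-73809896 in the copy, are shown because the letters of gene and copy are the same.
Ndufb4 and Ndufb4c: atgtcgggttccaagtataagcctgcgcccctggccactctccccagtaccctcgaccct
Ndufb4 held 21.3% and 21.8% of the joint counts. The joint level was 143.7 and 143.5 TPM over the effective length of Ndufb4, or 261.9 and 260.6 TPM as the sum of the deposited levels. The first value is below the lower quartile of the nuclear complex I genes (166.5 TPM) and the second above their median, so its place in the complex depended on the way of adding. The source of these reads was not tested.

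The nuclear core of complex I holds the NADH site and the iron-sulfur clusters. Its 7 genes had a median of 182.6 and 175.8 TPM, against 261.1 and 254.3 TPM for the 31 other nuclear members. Ndufv1, which binds NADH and flavin, had 182.6 and 175.8 TPM, and Ndufv2 260.7 and 250.5 TPM. Ndufs1, the large iron-sulfur subunit, was the lowest of the core at 125.5 and 118.7 TPM, and Ndufs7 the highest at 256.4 and 258.6 TPM, a range that overlapped that of Ndufv2. Ndufs3 had 174.8 and 168.3 TPM, and Ndufs8 170.1 and 162.3 TPM. The ranges of Ndufs3 and Ndufs8 overlapped. Core genes were also longer, with a median effective length of 949.6 bases against 552. Across the 65 detected nuclear members, level and effective length had a Spearman rho of -0.52 in replicate 1 and -0.51 in replicate 2, given as a description of genes that share 1 library.

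The 4 subunits of complex II, succinate dehydrogenase, lay within a narrow range. Sdhb, the iron-sulfur subunit, was highest at 370.1 and 361.4 TPM. Sdhd and Sdhc, the membrane anchors, had 254.1 and 253.8 TPM and 217.7 and 219.1 TPM. Sdha, the flavin subunit that oxidizes succinate, had 212.2 and 208.9 TPM. No neighbours in this order overlapped between libraries. The median was 236.2 ± 0.38 TPM (SD, n = 2).

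In complex III the one mitochondrial gene stood above all 9 nuclear ones. mt-Cytb, cytochrome b (chrM:14145-15288), had 1951 and 1814 TPM, and its one matching pseudogene had no counts. The nuclear median was 412.4 and 411.6 TPM, so the difference was 2.19 ± 0.07 on the log2 scale (SD, n = 2), or 4.73-fold and 4.41-fold. The small subunits Uqcr10 at 558.3 and 572.3 TPM, Uqcr11 at 531.0 and 514.0 TPM and Uqcrq at 442.6 and 443.4 TPM led the nuclear genes. Of the other catalytic subunits, cytochrome c1 (Cyc1) had 370.9 and 362.2 TPM and the Rieske iron-sulfur protein Uqcrfs1 198.6 and 199.5 TPM. The core protein Uqcrc2 was lowest at 148.3 and 155.6 TPM, while its partner Uqcrc1 had 412.4 and 425.1 TPM.

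The largest effect of the copies was in complex IV, cytochrome c oxidase. As deposited, mt-Co1 (chrM:5328-6872) had 1519 and 1343 TPM, mt-Co2 (chrM:7013-7696), which takes electrons from cytochrome c, had 1273 and 996.2 TPM, and mt-Co3 (ENSMUSG00000064358, chrM:8607-9390) had 807.2 and 489.3 TPM. The copy Gm28437 of mt-Co3 had 5240 and 4880 TPM, so mt-Co3 held 13.4% and 9.13% of their joint counts. With the copy, mt-Co3 reached 6039 and 5362 TPM and went from the lowest of the 3 genes to the highest. The pseudogene Gm28661, identical to mt-Co2 over 681 bases, had 1638 and 1818 TPM, and their joint level was 2903 and 2807 TPM. Gm29216 covers 480 of the 1542 coding bases of mt-Co1 and had 1908 and 1716 TPM, which gave mt-Co1 a joint level of 2038 and 1810 TPM over its own effective length. As the sum of the deposited levels it was 3428 and 3059 TPM, above the 2912 and 2816 TPM of mt-Co2 added the same way, so the order of mt-Co1 and mt-Co2 depended on the way of adding.

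As deposited, the mitochondrial median of complex IV exceeded the nuclear one by 1.78 ± 0.25 on the log2 scale (SD, n = 2), or 3.87-fold and 3.03-fold. With the copies added it was 3.12 ± 0.04, or 8.84-fold and 8.53-fold. As deposited and over the detected nuclear subunits only, it was 1.24. The authors' own interval for mt-Co3 in replicate 1, whose level is not stated in the sources used here, ran from 556.9 to 4701 TPM. The libraries also came closer together with the copies added, with an SD of 0.04 in place of 0.25.

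**Figure D2:**
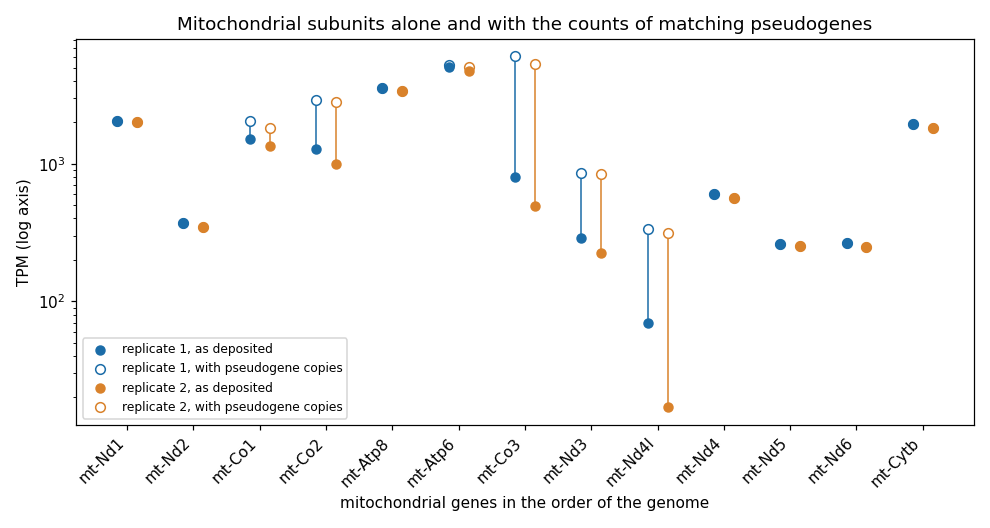
TPM on a log axis of the 13 mitochondrial genes in their order along mitochondrial DNA, as deposited (filled) and with the counts of matching pseudogenes added (open), in each library. The widest gaps on this axis are in replicate 2, for mt-Nd4l, from 17.0 to 314.7 TPM, and for mt-Co3, from 489.3 to 5362 TPM. mt-Nd1, mt-Nd2, mt-Nd5, mt-Nd6, mt-Cytb and mt-Atp8 show none, and mt-Nd4 almost none.

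The nuclear subunits of complex IV split into high general forms and low variants. Their median was 328.5 and 329.1 TPM over all 18 genes, of which 14 were detected. Cox6b1, on the cytochrome c side of the enzyme, led at 821.0 and 827.1 TPM, followed by Cox8a at 747.8 and 731.5 TPM and Cox4i1, the largest nuclear subunit, at 738.4 and 738.5 TPM. The ranges of Cox8a and Cox4i1 overlapped. Cox5a, at 526.3 and 550.0 TPM, exceeded the unrelated Cox5b, at 440.4 and 430.0 TPM, by 1.24-fold. Cox7c had 542.1 and 509.4 TPM, and a pseudogene within the span of Pitpna, Gm12338 (chr11:75599763-75599954), identical over 189 bases, had 639.5 and 636.2 TPM. Cox7c held 78.5% and 77.8% of the counts of gene and copies. The joint level was 689.8 and 655.8 TPM over the effective length of Cox7c, or 1187 and 1150 TPM as the sum of the deposited levels, which would place it above Cox6b1.

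Complex IV is known for subunit forms that differ by tissue, and the pairs compared here asked which form the facial prominence carried. A pair was read as different where the TPM ranges did not overlap and the mean log2 difference passed 2 pooled SDs of the 200 genes nearest in level. All 11 pairs met this, and no p-value was computed. In each pair of related forms the general form was higher. Cox4i1 was 87.9-fold above Cox4i2, the form known from lung, which had 8.53 and 8.28 TPM. Of 5 lung epithelium markers only Nkx2-1, which other tissues also express, was detected, with 7.62 and 3.66 TPM, and Sftpa1 and Scgb1a1 were at 0 in both libraries.

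The forms known from heart and skeletal muscle were low or not detected. Cox7a1 had 2.28 and 3.87 TPM, from 16 and 27 counts, and Cox7a2 exceeded it 121-fold (95% counting interval 90.1 to 168). Cox6a2 had 0.13 and 0.34 TPM, from 2 and 5 counts, against 604.2 and 617.2 TPM for Cox6a1, a ratio of 2599 (1261 to 6463). Cox8b had no count in either library, and Cox8a was at least 1714-fold higher when Cox8b is set to 3 counts per library. The muscle marker list summed to 21.2 TPM in replicate 1 and 49.7 in replicate 2 with 3 of 10 detected, led by Actc1 at 8.10 and 16.8 TPM and Myl7 at 4.53 and 20.0 TPM, and none of the 10 was at 0 in both. The list was mixed: by the log2 limit of 0.32 used below, 6 of its 8 genes with enough counts were higher in replicate 2, and the skeletal muscle regulators Myod1 (1.68 and 0.50 TPM) and Myog (2.65 and 0.52 TPM) were lower. Cox7a1 was higher in replicate 2, but the authors' intervals in the 2 libraries overlapped (1.29 to 3.50 and 2.54 to 5.40 TPM). Cox6a2 was below the mean count of 10 used for ratios, so no direction is given for it. The part of muscle cells in the levels of either gene was not tested.

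Of the forms known from testis, Cox6b2 was detected and the others were not. Cox6b2 had 38.9 and 35.6 TPM, and Cox6b1 exceeded it 22.1-fold. Cox7b2 had 0.17 and 0 TPM, from 2 counts in all, against 284.3 and 284.7 TPM for Cox7b, a ratio of 3347 (927 to 27639). Cox8c had no count, which put Cox8a at least 2456-fold higher at the same limit of 3 counts. None of 8 testis germ cell markers was detected, their sum was 1.22 and 1.07 TPM, and 3 of them, among them Tnp1 and Acrv1, were at 0 in both libraries. Cox6b2 was thus present where those markers were near 0.

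Of the remaining pairs, Ndufa4 exceeded Ndufa4l2 300-fold. Cox7a2l, a relative of the 7A subunits known as a factor in joining complexes III and IV into supercomplexes, had 105.1 and 97.8 TPM. Whether it has this role in the strain used was not tested. Cox7a2 at 372.8 and 373.5 TPM exceeded Cox7a2l 3.68-fold, the smallest fold among the related forms.

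**Figure D3:**
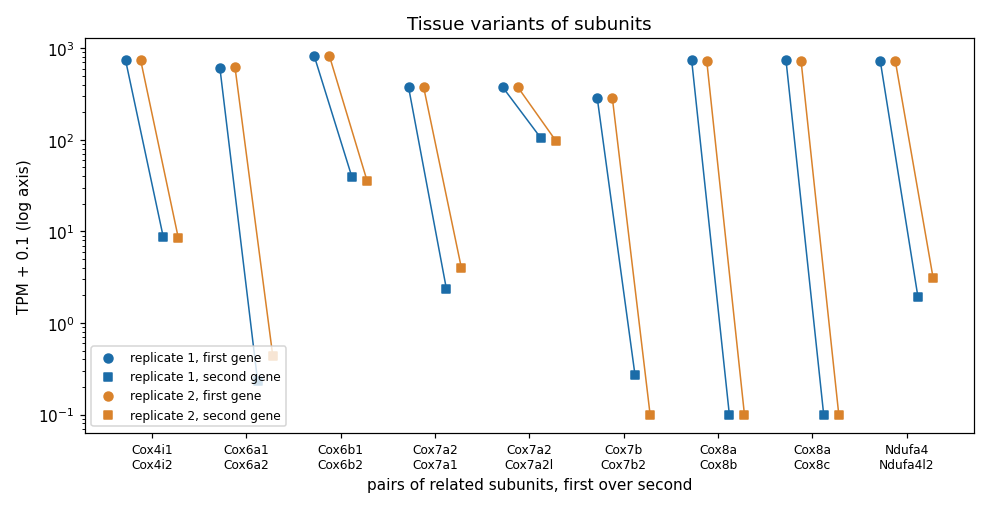
TPM plus 0.1 on a log axis for 9 pairs of related subunits, the general form as a circle and the other form as a square, joined within each library. All lines fall steeply except that from Cox7a2 to Cox7a2l, and the squares of Cox8b and Cox8c sit at the value 0.1 that stands for 0 TPM.

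Promoter letters were examined for the 54 of 69 nuclear members that matched a RefSeq window. Promoters of respiratory genes are known to be bound by NRF1, GABP and YY1. In RefSeq windows of 300 bases (GRCm38.p6, 250 before and 50 after the start), these members had 56 windows. The NRF1 letters GCGCANGCG, searched on both strands, were in 14 of 56 windows (25%), against 6.25% of all 32851 windows of that length. The YY1 letters AAGATGGC were in 7 (12.5%), against 2.75%, and the GABP letters CCGGAAGT in 4 (7.14%), against 3.89%. The letters GGGGCGGGG of Sp1 were in 7 (12.5%), against 11.4% of all windows. At least 1 of the first 3 was in 23 of 56 windows (41.1%), against 11.8%. A match is a description of letters and shows no binding. Levels of members with and without the letters were not compared as groups, and single genes went both ways. The high genes Cox6b1 (824 TPM in mean level) and Ndufa4 (720.2) had none of them. The low genes Ndufb4 (30.9) and Ndufa11 (58.2) had NRF1 letters. In the other direction, the high gene Cox8a (739.6) had GABP letters. The low genes Cox7a1 (3.08), Cox7b2 (0.085) and Cox8b (0) had none of the letters. The 250 bases before the start are shown for Cox6a1, at 610.7 TPM in mean level, and for Cox8b, at 0 TPM, as windows with and without such letters; capitals mark NRF1 letters, which also overlap each other on the 2 strands, and none of the letters searched was found in the Cox8b window.
Cox6a1 (chr5:115348959-115349208, minus strand): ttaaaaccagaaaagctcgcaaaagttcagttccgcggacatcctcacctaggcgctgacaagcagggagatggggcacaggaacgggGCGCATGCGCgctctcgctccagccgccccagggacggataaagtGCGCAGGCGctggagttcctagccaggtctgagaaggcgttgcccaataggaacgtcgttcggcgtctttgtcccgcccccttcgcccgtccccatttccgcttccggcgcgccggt
Cox8b (chr7:140900447-140900696, minus strand): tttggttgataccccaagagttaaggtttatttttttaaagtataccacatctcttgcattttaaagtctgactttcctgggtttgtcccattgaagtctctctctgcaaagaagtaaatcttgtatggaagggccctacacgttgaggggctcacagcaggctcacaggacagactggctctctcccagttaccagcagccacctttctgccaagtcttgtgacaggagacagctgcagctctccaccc

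The 2 mitochondrial genes of complex V, both in the membrane part of the ATP synthase, were the highest of all members as deposited. mt-Atp6, which forms part of the proton path, had 5024 and 4692 TPM, and mt-Atp8 had 3533 and 3376 TPM. The effective length of mt-Atp8 was 105 bases, so its level rests on a large length correction. With full transcript length the median of the 2 genes was 3303 TPM in place of 4156. The rank of mt-Atp8 alone on that scale is not given here. The genes share 43 bases on the same strand, where both are read in different frames, so reads of this run could be assigned to either. The run starts with the first codon of mt-Atp6, set in lower case as the rest because no base in it differs between the genes.
mt-Atp8 and mt-Atp6 (chrM:7927-7969, plus strand): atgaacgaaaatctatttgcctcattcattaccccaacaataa
The copy Gm10925, identical to mt-Atp6 over 678 bases, had 241.9 and 389.9 TPM, and the joint level of mt-Atp6 was 5265 and 5080 TPM. With copies added mt-Co3 exceeded mt-Atp6 in both libraries, so the order of these genes turned on how copies were counted. The 15 nuclear ATP synthase genes, which are no members, had a median of 516.8 and 463.6 TPM. Atp5b, the catalytic beta subunit, led them at 1866 and 1910 TPM, followed by Atp5a1 at 782.7 and 760.2 TPM and Atp5h at 754.3 and 738.3 TPM, while Atp5g2 at 151.2 and 140.8 TPM and Atp5l at 122.7 and 117.3 TPM were lowest.

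The pools were then compared with each other, as log2 ratios of replicate 2 over replicate 1 after TMM scaling of rounded expected counts. A gene was counted as apart at a log2 ratio of 0.32 or more in size, which describes 2 libraries and is no test. Over 17567 genes, 9.04% were higher and 12.9% lower in replicate 2 at that limit, and 1.62% and 2.3% at 2-fold. Of 65 nuclear subunits, 2 were higher and 0 lower by this count, a smaller share than over all genes. Those 2 were Ndufa4l2, from 41 to 68 counts (log2 ratio 0.74), and Cox7a1, from 16 to 27 counts (0.72), both low genes. The share over all genes includes genes down to a mean count of 10 and was not matched for level. Of the 69 nuclear subunits, 57 stood at 100 TPM or more in both libraries. The smaller share therefore cannot be read as a trait of these genes. Of the nuclear subunits, 35 were higher and 30 lower in replicate 2, with a median ratio of 0.02.

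Over all 17567 genes, 50.25% were lower in replicate 2, and the median size of a log2 ratio was 0.12. By their own counts, all 13 mitochondrial genes were lower in replicate 2, with a median log2 ratio of -0.07. Of the 13, 3 were lower by 0.32 or more. These were mt-Nd4l at -1.98, the one member past 2-fold, mt-Co3 at -0.69 and mt-Co2 at -0.33. Just inside the limit lay mt-Nd3 at -0.31. Each of these 4 genes has a counted copy on chromosome 1 that held more counts than the gene itself in both libraries. After the copies were added, ratios of the 13 genes ran from -0.14 to 0.01 and 0 were lower by 0.32 or more. The mitochondrial ribosomal RNAs, which are no members, were also lower in replicate 2: mt-Rnr1 had 367.6 and 325.7 TPM and mt-Rnr2 1558 and 1368 TPM.

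With spike-in scaling the median of all 17567 genes moved to -0.21, and under it the nuclear median turned to -0.20 while the mitochondrial median was -0.28. Relative to the median of all genes, which a change of scaling factor leaves as it is by construction, the mitochondrial median was -0.07 and the nuclear median 0.02. All 13 mitochondrial genes lay below 0 on that scale by their own counts. With copies added, the mitochondrial median under TMM scaling was -0.05 and the highest ratio, that of mt-Nd3, was 0.01. The median size of a ratio over all genes, 0.12, disregards sign and includes genes down to a mean count of 10. It is therefore no measure of how far a signed median of 13 genes can shift. The signed median over all genes under TMM scaling was -0.001. The summed erythroid markers were lower in replicate 2 as well (10786 and 9757 TPM), led by Hbb-y and Hba-x, while Hbb-bh1, Alas2 and Klf1 were higher and the list's median TPM was 33.6 and 33.9. Their part in the mitochondrial difference was not tested.

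**Figure D4:**
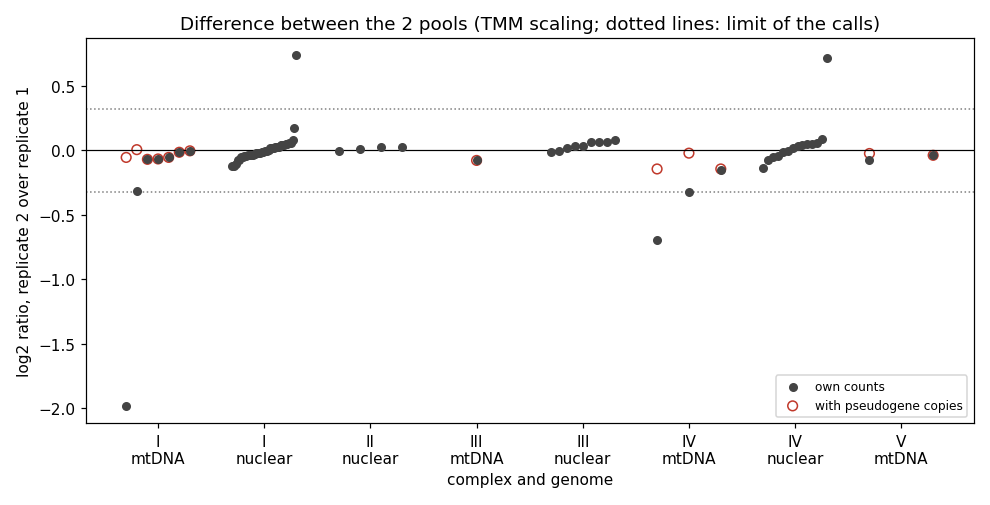
Log2 ratio of replicate 2 over replicate 1 for each subunit with a mean count of at least 10, by complex and genome, from its own counts (filled) and, for mitochondrial genes, with pseudogene copies (open). Dotted lines mark 0.32 in each direction. The filled points of mt-Nd4l (-1.98) and mt-Co3 (-0.69) lie far below the lower line and their open points lie near 0.

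The leading transcript, the one with the largest share of its gene's level, was compared between the libraries. Shares are the authors' percent of the gene's level. Of the 82 members, 39 had 1 transcript in the tables, and the other 43, all at a mean level of 5 TPM or more, could be compared. Both libraries had the same leading transcript for 42 of 43 (97.7%), where 94% of 7553 protein coding genes shared it. Shares themselves could differ between the pools: Ndufa7-201 led Ndufa7 with 81.1% in replicate 1 and 71.6% in replicate 2. The exception was Cox7b, where a transcript with a retained intron, Cox7b-203, had 46.0% and 45.1% and the coding transcript Cox7b-201 45.5% and 46.9%. The 2 were thus at about equal shares in both libraries.

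In 19 members the leading transcript held over 90% in both libraries, and in 10 it held under 60%. In Ndufa5, Ndufa5-204, a processed transcript, held 91.3% and 89.5%, so a leader not annotated as coding was also found outside those 10. Within them it was found for several. In Ndufb4, Ndufb4-202 with a retained intron held 54.4% and 55.1%, and in Ndufa10, Ndufa10-204 of the same class held 31.5% and 28.2%. The shares of Ndufb4 cover only the counts left to the gene, 21.3% and 21.8% of those of gene and copies. Its copy Ndufb4c matches the coding sequence, so the share of the coding transcript with the copy included is not known. In Cox5b, Cox5b-205, a processed transcript, held 56.1% and 52.9% beside 37.0% and 40.8% for the coding Cox5b-204. The coding leaders Ndufs1-201 at 47.1% and 50%, Ndufb5-203 at 44.3% and 46.3%, Ndufab1-206 at 44.9% and 46.2%, Ndufc1-204 at 50.8% and 51.3%, Ndufv1-201 at 50.6% and 58.0% and Cox6b2-203 at 24.9% and 22.8% made up the rest with Cox7b. The noncoding leaders were between 362 and 715 bases long, and the coding leaders between 315 (Ndufc1-204) and 2900 (Sdha-201). Levels are per length, so these shares are not shares of counts. The part of transcript length in them was not tested.

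Genes that build or regulate the chain were detected at lower levels than the subunits. The median level was 35.3 and 35.1 TPM for 14 complex I assembly factors, 19.9 and 19.9 TPM for 4 of complex II, 33.6 and 32.5 TPM for 6 of complex III, and 35.1 and 33.1 TPM for 19 of complex IV. Among these, Uqcc2, needed to make cytochrome b, was highest at 346.1 and 340.1 TPM, within the range of the nuclear complex III subunits and below mt-Cytb. Coa3 had 171.3 and 167.1 TPM, Cox17, a copper chaperone, 107.7 and 111.2 TPM, and Cox14 108.9 and 109.2 TPM. Sco2, another copper protein, was low at 4.09 and 6.80 TPM and was the one assembly factor past the log2 limit of 0.32, higher in replicate 2, and Pet117 was listed at 0 in both.

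For complex I, Ndufaf2 at 87.7 and 86.4 TPM, Ndufaf8 at 68.8 and 72.8 TPM and Ndufaf4 at 48.4 and 45.7 TPM led, and Nubpl, which delivers iron-sulfur clusters, was lowest at 14.8 and 15.2 TPM. All 16 genes of the mitochondrial DNA and RNA machinery were detected, with a median of 36.9 and 36.5 TPM. Slirp, which stabilizes mitochondrial messenger RNAs, had 261.2 and 270.2 TPM, the DNA-binding Ssbp1 188.4 and 181.3 TPM, and the transcription factor Tfam 73.4 and 72.8 TPM. None of these 16 passed 0.32 between the pools.

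Of 8 nuclear regulators, 7 were detected. Nrf1, whose letters were searched above, had 77.5 and 79.2 TPM, Gabpb1 73.5 and 67.2 TPM, and the coactivator Pprc1 47.2 and 54.4 TPM. The related coactivators Ppargc1a, at 2.02 and 0.93 TPM, and Ppargc1b, at 1.89 and 1.34 TPM, were the lowest, and both were lower in replicate 2 by more than 0.32 on the log2 scale. These are the coactivators known from brown fat, muscle and heart.

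**Figure D5:**
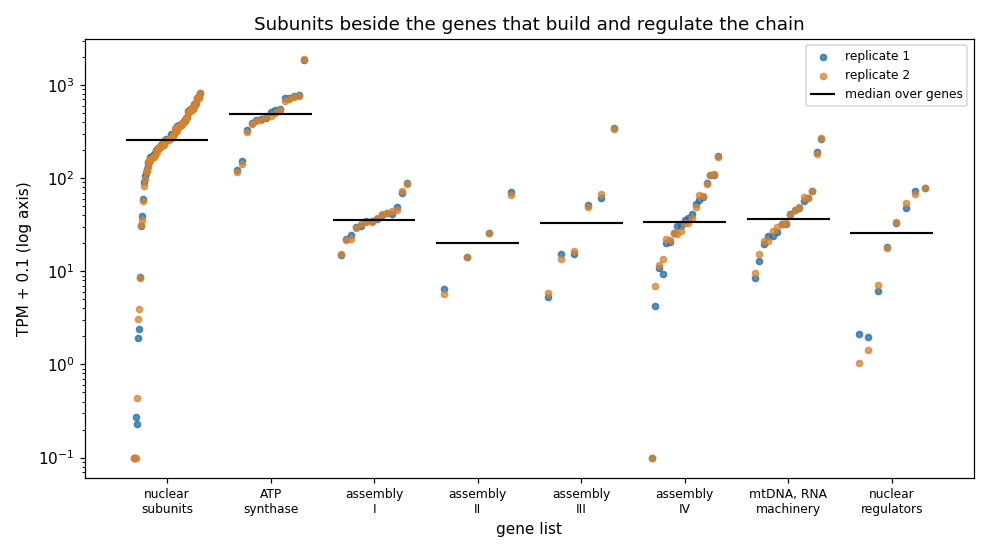
TPM plus 0.1 on a log axis for the nuclear subunits and for lists of genes that assemble or regulate the chain, in each library; black bars are medians over genes. Subunits and nuclear ATP synthase genes have medians above 200 TPM, and the other lists have medians between 19.9 and 36.9 TPM, with Uqcc2 as the highest single assembly factor.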

How the data were processed

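Total RNA-seq tables of 2 libraries were used. Expected counts per gene, not normalized, and TPM values, scaled over all features of a file, were deposited by the authors, with posterior mean estimates and with each transcript's percent of its gene. The bounds of the authors' interval of each TPM, handled as signal values, were deposited without the level of the interval. Reads were placed on mm10 and quantified against GENCODE M4, per the submitters' processing notes; the sources used here do not give the aligner or the quantifier. Symbols and coordinates came by gene identifier from GENCODE M21 on GRCm38, which matched all 82 members. The 82 members and all lists were chosen with earlier results of these data known. Named genes were all mitochondrial genes, the 3 highest and 3 lowest nuclear subunits of each complex, the pairs and the catalytic lists. Members not detected, at least 0.32 apart on the log2 scale or with split leading transcripts were named too. The 3 highest and 2 lowest of each other list were planned, but for several of these lists not all are named. No neuron marker and no complex II assembly factor is named. Further members were named after their values were seen. The single values of 1 member that this rule takes are not reported here.

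Gene counts came to 40059176 and 39531700. The libraries were kept as 2 samples, since a chi-square comparison over 17567 genes came to 8.93 for each degree of freedom. Ratios used TMM factors (edgeR 4.0.16) on expected counts rounded to whole numbers, a minimum mean count of 10 and a prior count of 2; DESeq2 1.42.0 factors, total counts and spike-in counts were alternatives. The ratio script was tested on simulated data. The series has 1 group, and mitochondrial and nuclear values come from the same 2 libraries, so no test was made. Even with 2 independent values against 2, no exact permutation p could go below 0.33. Pairs used log2(TPM + 0.1), a scale that understates folds of low genes. Intervals and the limit of 3 counts for a count of 0 cover counting error only. Pseudogene copies were found with BLAST+ 2.17.0, plus strand, at 90% identity or more over at least 100 bases. Protein sequences were not analysed here.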

Additional observations from a re-analysis of the deposited data

How the results depend on the processing

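No paired analysis was possible because the series has 1 group. Values from each library alone kept their direction and lay within 1 replicate SD of the mean of both, which 2 values do by construction. Levels are listed here where an alternative shifted them by more than the replicate SD, which was very small for some medians. Posterior mean TPM gave medians of 228.7 (complex I, nuclear), 231.2 (II), 404.0 (III, nuclear), 322.1 (IV, nuclear), 1514 (IV, mitochondrial) and 3702 TPM (V). Full transcript length gave 243.5 (II), 376.3 (III, nuclear), 317.1 (IV, nuclear) and 3303 TPM (V). TPM over Ensembl genes alone gave 295.1 (I, mitochondrial), 254.5 (I, nuclear), 257.9 (II), 2055 (III, mitochondrial), 449.9 (III, nuclear), 359.1 (IV, nuclear) and 4538 TPM (V). Pseudogene counts, an alternative chosen after seeing the data, gave 358.1 (I, mitochondrial), 2855 (IV, mitochondrial) and 412.7 TPM (III, nuclear). The mitochondrial median over the nuclear one (log2) in complex I became 0.43 without mt-Nd4l, 1.06 with means in place of medians, and 0.62 with copies added by TPM or by counts. In complex III it became 2.35 with full length and 2.29 with means. In complex IV it became 2.23 with posterior means, 1.24 over detected nuclear subunits only, 3.30 with copies by TPM and 3.12 with copies by counts. It stayed above 0 in all of these.

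Spike-in scaling moved the median ratio between pools to -0.28 for mitochondrial genes, with 5 lower by 0.32 or more, and turned that of nuclear genes to -0.20, with 4 lower. Without the count filter 1 nuclear gene was lower, with a mean count of at least 50 there was 1 higher, and with copies merged 0 mitochondrial genes were lower. Of 196 recomputed values, 159 kept their direction and size, 36 moved and 1 reversed. The cause of these shifts was not tested. A count of 0 allows up to 3 counts, which for Cox8b is 0.432 TPM.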

Other observations

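Cytochrome c, the protein that carries electrons from complex III to complex IV and is no member here, was carried by its general form. Cycs had 71.4 and 71.5 TPM, below the median nuclear subunit of both complexes it connects, and the testis form Cyct had 0.14 TPM in each library from 4 counts in all. Cycs exceeded Cyct 510-fold (95% counting interval 199 to 1874). Pseudogene copies were searched for members only, so copies of Cycs and of the nuclear ATP synthase genes were not examined, and their levels are as deposited.

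Matching pseudogenes were also listed for 22 nuclear members, 37 in all. Apart from those of Ndufb4 and Cox7c, the copies changed a member's level little: with copies added Ndufab1, the most affected of the rest, was 1.04-fold higher, at 680.5 and 683.5 TPM.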
